A study of Mus musculus and Bos taurus with 6 samples.

Results

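The rodent miRNA miR-297, miR-466, miR-467 and miR-669 were followed in small RNA libraries from the lactating mouse mammary gland. They were chosen by name, as the lines of the mouse list named miR-297, miR-466, miR-467 or miR-669 with or without a letter. These were 56 of the 1750 lines, and they held 47 distinct mature sequences of the 1737 in the list. Of the 47 sequences, 29 were named 5p, 13 were named 3p and 5 carried no arm in their name. By number, 4 sequences belonged to miR-297, 21 to miR-466, 10 to miR-467 and 12 to miR-669. All 4 libraries were made from whole mammary gland of FVB/N mice, an inbred strain, on lactation day 12, without any treatment. The 2 mouse samples hold total small RNA. The 2 AGO2 samples hold small RNA that came down with Argonaute 2 under the EIF2C2 monoclonal antibody of Abnova. The study describes abdominal glands of 2 primiparous mice with the lymph node removed, but not which gland gave which library, and names 2 animals as the source of the AGO2 libraries. The labels do not tie a library to an animal, so the p-values given here measure the spread between libraries of 1 group, which may in part be technical. No line of these names and no line with 1 of these sequences was found among the 1539 lines of the bovine list.

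Most genes of these miRNA form a large cluster inside an intron of Sfmbt2, a gene that encodes a Polycomb group protein and is imprinted in the mouse. The cluster is found in rodents and is known for its abundance in embryonic stem cells and in the placenta. Each hairpin precursor is cut to a duplex of a 5p and a 3p strand, and the strand that Argonaute keeps recognises messenger RNA mainly through its seed, which is bases 2 to 8. The comparison of AGO2 with mouse samples asks which miRNA of the gland are found with Argonaute 2.

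The sequences of 7 of the most abundant members carry most of the signal of the group and are printed as deposited, in DNA letters and from 5′ to 3′, with the seed in capitals. The miR-467 strands share the tail gcatgtatatg, which miR-669d-5p also carries, and differ around the seed. Each line gives a different member.
miR-467a-5p: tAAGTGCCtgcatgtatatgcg
miR-467b-5p: gTAAGTGCctgcatgtatatg
miR-467c-5p: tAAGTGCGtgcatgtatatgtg
miR-467d-5p: tAAGTGCGcgcatgtatatgcg
miR-467e-5p: aTAAGTGTgagcatgtatatgt
miR-669d-5p: aCTTGTGTgtgcatgtatatgt
miR-466h-5p: tGTGTGCAtgtgcttgtgtgta
miR-467a-5p and miR-467b-5p are the same stretch read from start points 1 base apart, so their seeds differ. In the deposited lists they held the same count in each library, so the counts do not separate them.

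A further set is printed for the comparison of 5p with 3p strands and for further 5p strands, of which miR-669b-5p and miR-669o-5p were among the 12 most abundant sequences. miR-669a-3p is identical to miR-669o-3p, miR-669a-5p to miR-669p-5p, and miR-297a-3p to the 3p strands of miR-297b and miR-297c.
miR-669a-5p: aGTTGTGTgtgcatgttcatgtct
miR-669a-3p: aCATAACAtacacacacacgtat
miR-297a-5p: aTGTATGTgtgcatgtgcatgt
miR-297a-3p: tATACATAcacacatacccata
miR-466d-3p: tATACATAcacgcacacatag
miR-467e-3p: aTATACATacacacacctatat
miR-669b-5p: aGTTTTGTgtgcatgtgcatgt
miR-669o-5p: tAGTTGTGtgtgcatgtttatgt
miR-466i-5p: tGTGTGTGtgtgtgtgtgtg
miR-466i-5p, which is a plain run of TG, and the miRNA named in later paragraphs that are neither printed above nor fixed by the naming rule were chosen after their values had been seen.

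These sequences are rich in runs of TG and CA. The share of U and G in the 5p members had a median of 70.8%, from 59.1% to 100%, against a median of 58.7% in the 370 other known 5p sequences of the list. The 3p members mirrored this, with a median share of A and C of 78.3% against 50.0% in 378 other known 3p sequences. The run TGTGTG, searched on the strand of the miRNA, stood in 23 of the 29 5p members and in 7 of the 370 others (1.89%). The run ACACAC stood in 9 of the 13 3p members and in 6 of the 378 others (1.59%). Among the 47 sequences, 34 (72.3%) had another member within 1 mismatch, allowing an offset of up to 2 bases over at least 18 bases, against 79 of 837 other known sequences (9.44%).

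The 47 sequences carried 29 different seeds, of which 11 were shared by 2 or more members. The seed AAGTGCG joined miR-467c-5p and miR-467d-5p. Their summed level, in RPM (reads per 1000000 reads counted in the library), was 91.6 in the mean of the mouse samples and 42.3 in that of the AGO2 samples. TAAGTGT joined miR-467e-5p and miR-467h, and GTTGTGT joined the 5p strands of miR-669a, miR-669f and miR-669l. GTGTGCA was shared by miR-466h-5p, miR-466j and miR-466m-5p, and TGTATGT by the 5p strands of miR-297a, miR-297b and miR-297c. On the 3p side, ATACATA joined miR-297a-3p, miR-466a-3p, miR-466d-3p and miR-467g. Among the known lines that are not members, only miR-1187 had a seed of the group, with a single count in the 4 libraries. Lines of predicted miRNA were not searched.

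The core AAGTGC at bases 2 to 7 is known from the miR-290 and miR-302 families of embryonic stem cells. It stood in 3 members, the 5p strands of miR-467a, miR-467c and miR-467d, and in 4 other known lines of the list, predicted lines not being searched. Of these 4, miR-291a-3p, miR-294-3p and miR-302d-3p reached at most 1.59 RPM in any library, and miR-350-5p lay between 4.95 and 18.6 RPM. In each library the 3 miR-467 strands held more counts than these 4 lines together. Counting miR-467a and miR-467b once, the 5p strands of miR-467a, c, d and e summed to 269 and 218 RPM in the mouse samples against 133 and 107 RPM in the AGO2 samples.

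GENCODE M21 on GRCm38 lists 81 genes of these names, of which 71 lie inside Sfmbt2 (chr2:10370510-10595253), all on its strand and all in intron 11 of the transcript Sfmbt2-205, which has 23 exons. They span chr2:10466663-10518279, which is 51.6 kb, with 5 genes of miR-297, 23 of miR-466, 14 of miR-467 and 29 of miR-669. The precursor named for miR-669d-5p lies at chr2:10468343-10468463, that of miR-467c-5p at chr2:10473931-10474027, that of miR-467e-5p at chr2:10505721-10505807, that of miR-467d-5p at chr2:10507630-10507714 and that of miR-466h-5p at chr2:10514891-10514971. The map of the precursor genes shows miR-466, miR-467 and miR-669 genes taking turns along the middle of the cluster.

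**Figure D1:**
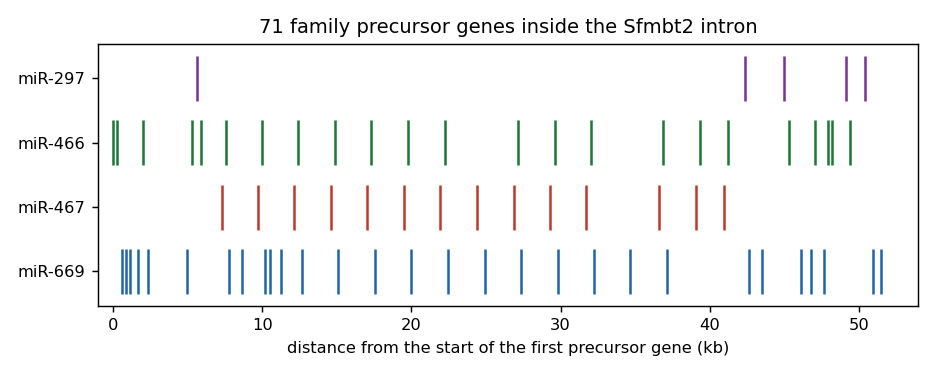
Start of each of the 71 precursor genes inside the Sfmbt2 intron, as the distance in kb from the start of the first gene, with 1 row of ticks for each miRNA number. The 23 miR-466, 14 miR-467 and 29 miR-669 genes alternate, and 4 of the 5 miR-297 genes stand towards the end of the 51.6 kb.

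Of the 40 precursors named beside the 56 lines, 34 lie in the intron and 6 elsewhere. Those elsewhere belong to miR-466i-3p on chromosome 13, miR-466i-5p on chromosome 3 within Tnik, miR-466j on chromosome 10, miR-466k on chromosome 3, miR-467g on chromosome 5 within Grk4 and miR-467h on chromosome 9. The 6 sequences took 1.36% and 0.962% of the members' counts in mouse samples 1 and 2, 0% in AGO2 sample 1 and 1.17% in AGO2 sample 2. A read cannot be tied to 1 gene in many cases. All 47 sequences stood in at least 1 annotated hairpin and 25 stood in 2 or more, against 64 of 837 other known sequences. miR-467a-5p stood in 12 hairpins and miR-669a-5p in 15, while miR-467c-5p, miR-467d-5p, miR-467e-5p and miR-466h-5p stood in 1 each. Transcripts of protein-coding or long noncoding genes held 3 of the 47 sequences (6.38%) and 147 of the 837 others (17.6%). The TG run of miR-466i-5p stood in transcripts of 1237 such genes, so its counts are uncertain.

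The libraries held 9299807 and 8391916 counts (mouse samples 1 and 2), 3909166 counts (AGO2 sample 1) and 5041406 counts (AGO2 sample 2). A count of 0 allows up to 3 counts, which is 0.323, 0.357, 0.767 and 0.595 RPM in these libraries. Intervals and limits allow for counting error alone, because PCR copies could not be told from separate molecules. miRNA of the mammary epithelium (miR-141-3p, miR-205-5p and the 3p strands of miR-200a, b and c) were counted in every library and summed to 155444 to 181734 RPM in the mouse and 334535 to 365137 RPM in the AGO2 samples, where miR-200a-3p and miR-141-3p lay above and miR-200b-3p and miR-200c-3p below both mouse samples. Of 10 miRNA of embryonic stem and trophoblast cells, 3 were listed, and they summed to at most 1.98 RPM in any library. Erythroid miRNA summed to 6504 to 13343 RPM in the mouse and 15527 to 32468 RPM in the AGO2 samples, and leukocyte miRNA to 1263 to 2123 and 2351 to 2971 RPM. Skeletal muscle miRNA summed to 163 to 213 and 27.9 to 70.2 RPM, endothelial miRNA to 24194 to 34265 and 28819 to 29280 RPM, and those of smooth muscle and stroma to 51990 to 66163 and 32082 to 33140 RPM. These sums also hide opposite directions. In both AGO2 samples, miR-1a-3p and miR-126a-3p lay below and miR-133a-3p and miR-126a-5p above both mouse samples. In the same way, stromal miR-143-3p and leukocyte miR-155-5p lay below. Stromal miR-199a-5p, leukocyte miR-142-5p, miR-150-5p and miR-223-3p and erythroid miR-144-3p lay above. For the other stromal, leukocyte, erythroid and muscle miRNA, such as miR-451a, the groups overlapped. The part of these differences in the results was not tested. The groups also differ by the AGO2 pull-down itself, from which cell content cannot be told apart. Nor can fewer cells of a type be told apart from less of its RNA per cell.

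The AGO2 samples stood apart from each other for these miRNA. AGO2 sample 1 held a count for 11 of the 47 members and AGO2 sample 2 for 37, against 41 and 40 in the mouse samples. Over the known miRNA that are not members, 44.3% and 67.7% had a count in AGO2 samples 1 and 2, against 83.5% and 76.5% in the mouse samples. Results on AGO2 samples are therefore given for each of them. The study lists more unique sequences for its AGO2 sample 2 than for its AGO2 sample 1. It states that many reads of the former were below 10 counts and were later dropped by miRDeep2. Whether this bears on the members was not tested. Of the members, 35 were counted in both groups, 9 in the mouse samples only and 3, miR-466h-3p, miR-467e-3p and miR-467g, in AGO2 samples only. Of the 47 sequences, 10 had a count in all 4 libraries and 22 had counts everywhere except in AGO2 sample 1, as the grid of sequences by library shows for all but 1 of them.

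**Figure D2:**
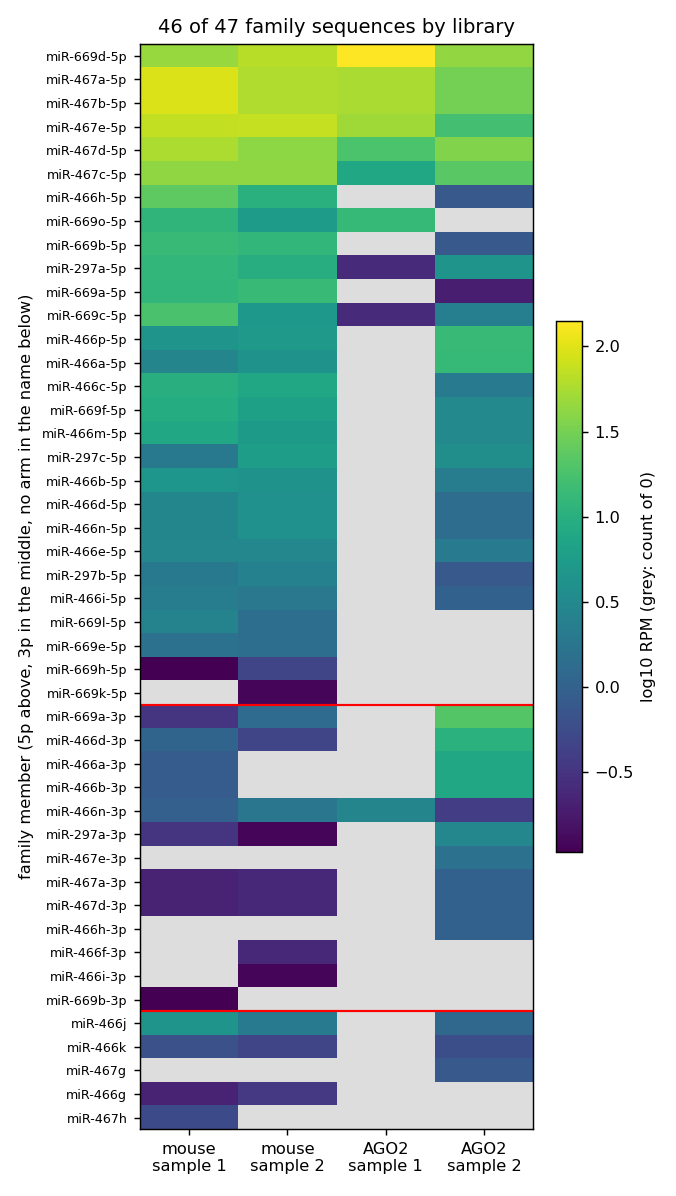
Level of 46 of the 47 family sequences in the 4 libraries, as log10 RPM in colour with a count of 0 in grey, ordered by arm and by mean level. AGO2 sample 1 is grey for 36 members, and the 3p block is brightest in AGO2 sample 2.

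Many members of moderate level had no count in AGO2 sample 1. Of the 23 members with a mouse mean from 1 to 20 RPM, 18 (78.3%) were at 0 in AGO2 sample 1, against 84 of 199 (42.2%) other known miRNA. In AGO2 sample 2 the shares were 3 of 23 (13.0%) and 19 of 199 (9.55%). Among 5p strands only, 17 of 21 members and 38 of 74 others (51.4%) were at 0 in AGO2 sample 1. These are descriptions of single libraries, without a test.

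As a whole the group was scarce in the gland. The 47 sequences summed to 578 RPM in mouse sample 1 and 471 RPM in mouse sample 2, with 95% Wilson intervals of 563 to 594 and 456 to 486 RPM. In AGO2 samples 1 and 2 they summed to 367 RPM (348 to 386) and 304 RPM (290 to 320). Both AGO2 samples lay below both mouse samples, with means of 336 ± 44.1 (SD, n = 2) and 525 ± 76.1 RPM (SD, n = 2). Sequences with the same counts in all 4 libraries, such as miR-467a-5p and miR-467b-5p, may have been given the same reads. Counted once, they left sums of 443 ± 51.0 RPM in the mouse and 286 ± 33.7 RPM in the AGO2 samples. No summed value was tested.

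The 5p strands of miR-467a to e with miR-669d-5p made up 70.9%, 72.9%, 89.9% and 60.1% of the members' counts in mouse samples 1 and 2 and AGO2 samples 1 and 2. The miR-467 share of the counts was 63.1% and 59.0% in the mouse and 51.7% and 46.9% in the AGO2 samples. The miR-669 share was 19.9%, 24.1%, 41.8% and 23.5% in the same order, and that of miR-466 was 14.1%, 13.1%, 6.42% and 25.7%. miR-297 stayed between 0.0697% in AGO2 sample 1 and 3.91% in AGO2 sample 2. All these shares count miR-467a-5p and miR-467b-5p separately, although the pair held the same counts and may have been given the same reads. With this pair counted once, the shares that include miR-467 would be lower and the others higher. Of the 12 most abundant sequences, 2 lay over 2-fold apart between the mouse samples, and 9 lay over 2-fold apart or were at 0 in 1 library between the AGO2 samples.

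miR-669d-5p was the most abundant member on the mean of the 4 libraries. It lay at 46.1 and 65.8 RPM in mouse samples 1 and 2 and at 140 and 44.4 RPM in AGO2 samples 1 and 2. It was the only member above 100 RPM, in AGO2 sample 1 alone, whereas AGO2 sample 2 lay below both mouse samples, so the groups overlapped. miR-467a-5p and miR-467b-5p both lay at 95.6, 59.7, 56.8 and 31.7 RPM in the same order. Both AGO2 samples were below both mouse samples, although AGO2 sample 1 was close to mouse sample 2.

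miR-467e-5p lay at 72.9 and 75.0 RPM in the mouse samples and at 49.9 and 16.5 RPM in the AGO2 samples. The mouse samples were near each other and the AGO2 samples lay further from each other than AGO2 sample 1 from the mouse. miR-467d-5p lay at 58.0 and 41.0 RPM in the mouse and at 18.2 and 36.3 RPM in the AGO2 samples. miR-467c-5p, of the same seed, lay at 42.0 and 42.2 RPM in the mouse and at 7.93 and 22.2 RPM in the AGO2 samples. For both of these the lower AGO2 value was that of sample 1, unlike for miR-467a, b and e, where it was that of sample 2.

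miR-466h-5p lay at 24.0 and 10.2 RPM in the mouse samples, had a count of 0 in AGO2 sample 1 and lay at 0.793 RPM in AGO2 sample 2. It was the least abundant of the tested members, and both AGO2 samples lay below both mouse samples. miR-669o-5p lay at 11.6 and 5.48 RPM in the mouse and at 13.0 RPM in AGO2 sample 1 with a count of 0 in AGO2 sample 2, so that the AGO2 samples lay on both sides of the mouse samples.

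miR-669b-5p lay at 13.8 and 12.3 RPM in the mouse, at 0 in AGO2 sample 1 and at 0.793 RPM in AGO2 sample 2. miR-669a-5p lay at 11.9 and 13.9 RPM in the mouse, at 0 in AGO2 sample 1 and at 0.198 RPM, a single count, in AGO2 sample 2. miR-297a-5p lay at 12.5 and 9.41 RPM in the mouse and at 0.256 and 4.36 RPM in the AGO2 samples. For these 3 strands both AGO2 samples were below both mouse samples. miR-669l-5p lay at 2.69 and 1.43 RPM in the mouse samples and miR-669e-5p at 1.61 and 1.43 RPM. Both strands had a count of 0 in both AGO2 samples. The limit of 3 counts over both AGO2 libraries lay 6.24-fold and 4.55-fold below their values over both mouse libraries. These ratios leave out the counting error and the spread of the mouse samples.

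**Figure D3:**
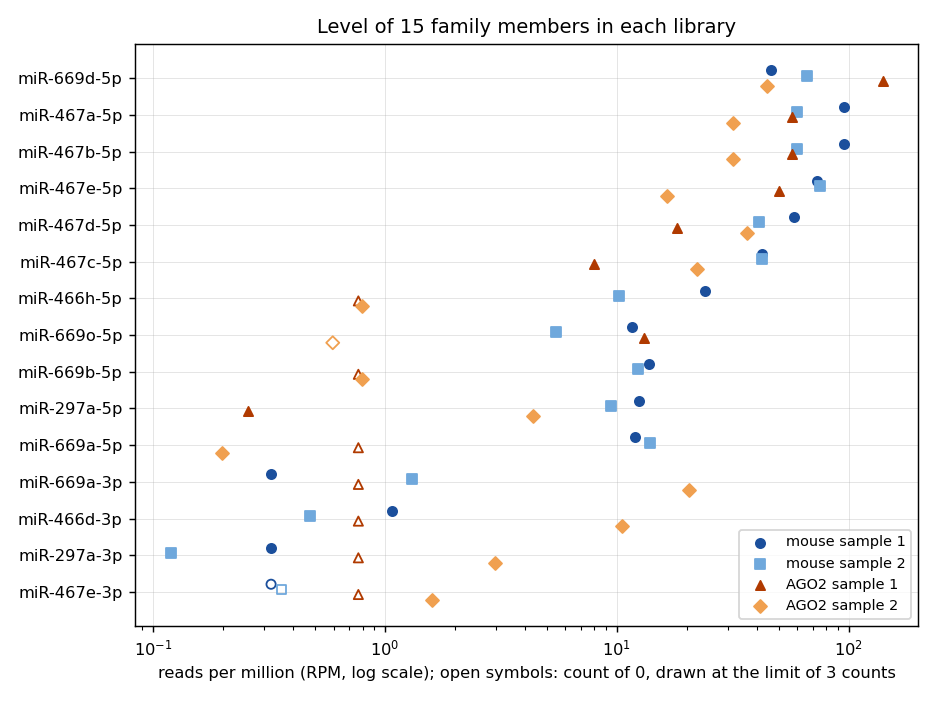
RPM of 15 members in each library on a log axis, with filled symbols for counts and open symbols for a count of 0, drawn at the limit of 3 counts. The 5 miR-467 5p strands and miR-669d-5p stand above the other members in both mouse samples, and the 3p strands at the bottom have their highest values in AGO2 sample 2.

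The AGO2 and mouse samples were compared with edgeR over 299 miRNA, those whose highest count in the 4 libraries exceeded the minimum set in the study's methods. Of these, 83 (27.8%) passed an adjusted p of 0.05, 46 of them (15.4%) higher and 37 (12.4%) lower in AGO2. The filter kept 7 members, and 0 of them passed. At an unadjusted p under 0.05 there was 1, miR-466h-5p, against 131 of the 299 (43.8%), and DESeq2, which called 39.1% of the 299, called 1, the same miRNA. Beside it, the filter kept the 5p strands of miR-467a, b, c, d and e and of miR-669d, so the 40 other members were not tested in this fit.

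The log2 fold change of AGO2 over mouse was -5.09 for miR-466h-5p with a standard error of 2.32 and an adjusted p of 0.0953 (edgeR). DESeq2 gave -5.03 with an adjusted p of 0.0325. When AGO2 sample 2 was left out, edgeR gave an adjusted p of 0.00576 in a fit that called 24.2% of the miRNA it tested. In that fit AGO2 is 1 library with a count of 0, assumed to vary like the mouse samples. Leaving mouse counting error and spread aside, the limit of 3 counts there lay 22.8-fold below the value over both mouse libraries of miR-466h-5p. Over 9 alternatives its adjusted p ran from 0.00576 to 0.514, and the call therefore rests on the tool and on that library. The other 5p strands had smaller log2 fold changes, of -1.30 ± 1.09 (standard error) for miR-467c, -1.03 ± 0.82 for miR-467e, -0.68 ± 0.92 for miR-467d and -0.66 ± 0.76 for miR-467a and miR-467b. The value for miR-467d-5p was 0.10 when AGO2 sample 1 was left out. miR-669d-5p had the only value above 0, with 0.84 ± 0.74. The adjusted p of these 6 lay between 0.332 and 0.560 (edgeR), so that for none of them was a difference larger than the spread between libraries detectable.

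The median log2 fold change over all 299 miRNA was -0.12, against -0.01 with the size factors of DESeq2 and -0.27 with library totals alone. The 6 negative values above lay below the first of these medians, those of miR-467a-5p and miR-467b-5p being 1 result of the same counts. miR-466h-5p and miR-467c-5p passed the minimum through the mouse samples alone, which are the deeper ones, so the direction of these 2 was partly set by the filter.

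**Figure D4:**
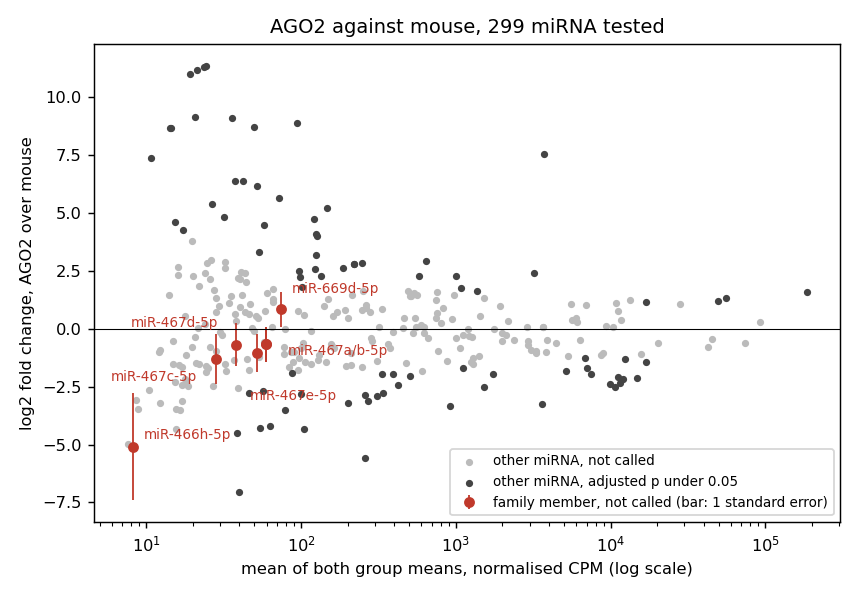
Log2 fold change of AGO2 over mouse against the mean of both group means in CPM (counts per 1000000 of the library size after TMM scaling), on a log axis, for the 299 miRNA tested. The 7 members are in red with bars of 1 standard error, miR-669d-5p being the only one above 0 and miR-466h-5p the lowest at -5.09.

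A lower minimum, of 10 counts in at least 2 libraries, let 31 members be tested among 501 miRNA, of which 67 (13.4%) were called. Of these 31, 0 passed the adjustment and 5 had an unadjusted p under 0.05 in edgeR, against 168 of the 501 (33.5%). There were 10 of the 31 that had fewer than 10 counts in both AGO2 samples and so were kept through the mouse samples alone. All 5 with an unadjusted p under 0.05 in edgeR were among these 10, so their direction was partly set by the filter. In edgeR the adjusted p was 0.102 for miR-669l-5p and 0.118 for miR-669e-5p, and the smallest was 0.0519, for miR-669a-5p. The edgeR fit without any filter gave this miRNA an adjusted p of 0.514. Without a filter, 47 members were tested, 0 were called and 0 had an unadjusted p under 0.05 in edgeR, against 63 of 1750 lines (3.6%) called.

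The 5p and the 3p strands were then set apart, since most members fell outside the test. In RPM over all 884 known sequences, both AGO2 samples lay below both mouse samples for 285 (32.2%) and above them for 111 (12.6%). Of the 29 5p members, 22 lay below, against 145 of the 370 other known 5p sequences (39.2%), and 1 lay above. Of the 13 3p members, 0 lay below and 0 above, and in AGO2 sample 2 alone 9 of the 13 (69.2%) exceeded both mouse samples, against 166 of 378 (43.9%) other known 3p sequences. These shares were not tested, since many members share sequence and reads.

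In the mouse samples nearly all counts of the members with a named arm came from 5p strands, 99.1% and 99.0%, with 46 and 38 counts from 3p strands. AGO2 sample 1 was alike, with 99.2% and 11 counts from 3p strands, all of miR-466n-3p. In AGO2 sample 2 the 5p share was 81.9% with a 95% Wilson interval of 79.9% to 83.7%, and 276 counts came from 3p strands. These include sequences with the same counts in all 4 libraries, such as miR-466a-3p and miR-466b-3p, which the interval treats as separate reads. The AGO2 mean was thus 90.5% ± 12.3 (SD, n = 2) and rests on sample 2, against 99.1% ± 0.0735 (SD, n = 2) in the mouse. With such sequences counted once, the means were 90.7% in AGO2 and 99.1% in the mouse. For the other known miRNA the 5p share was 47.6%, 44.8%, 31.5% and 28.6% in the same order of libraries.

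**Figure D5:**
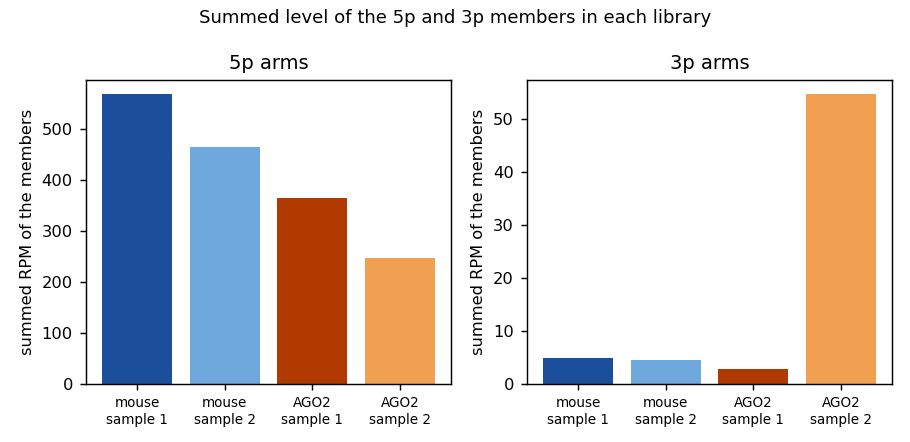
Summed RPM of the 29 5p members (left) and of the 13 3p members (right) in each library, with axes from 0 and of different scale. The 3p sum was 54.7 RPM in AGO2 sample 2 and between 2.81 and 4.95 RPM in the other 3 libraries, whereas the 5p sum was lowest in AGO2 sample 2 at 247 RPM.

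miR-669a-3p led the 3p counts of AGO2 sample 2. It lay at 0.323 and 1.31 RPM in the mouse samples, at 0 in AGO2 sample 1 and at 20.4 RPM in AGO2 sample 2. The 5p strand of the same precursors, miR-669a-5p, thus had 111 and 117 counts beside 3 and 11 counts of the 3p strand in the mouse samples, and 1 count beside 103 in AGO2 sample 2. miR-466d-3p lay at 1.08 and 0.477 RPM in the mouse, at 0 in AGO2 sample 1 and at 10.5 RPM in AGO2 sample 2. miR-466a-3p and miR-466b-3p, which held the same counts, lay at 0.860 and 0 RPM in the mouse, 0 in AGO2 sample 1 and 7.93 RPM in AGO2 sample 2. In each of these the high value was that of 1 library.

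miR-297a-3p lay at 0.323 and 0.119 RPM in the mouse, at 0 in AGO2 sample 1 and at 2.98 RPM in AGO2 sample 2. miR-467e-3p was at 0 in both mouse samples and in AGO2 sample 1 and lay at 1.59 RPM in AGO2 sample 2. miR-466n-3p had its highest value in AGO2 sample 1, with 0.968 and 1.79 RPM in the mouse, 2.81 RPM in AGO2 sample 1 and 0.397 RPM in AGO2 sample 2. On the 5p side, miR-466a-5p and miR-466p-5p, of the shared seed ATGTGTG, lay at 2.80 to 5.12 RPM in the mouse, at 0 in AGO2 sample 1 and at 13.3 and 13.5 RPM in AGO2 sample 2. These strands differ only by a final base and had 67 and 68 counts there, so they may share reads. miR-466e-5p, of the same seed, lay at 3.01 and 2.98 RPM in the mouse, at 0 in AGO2 sample 1 and at 1.98 RPM in AGO2 sample 2.

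Both arms were listed for 19 precursor names. The 5p strand had more counts than the 3p strand in 19 of 19 in each mouse sample. In AGO2 sample 1, 12 had neither strand, 6 had more of the 5p strand and 1, miR-466n, had more of the 3p strand. In AGO2 sample 2, 11 had more of the 5p and 8 had more of the 3p strand, namely miR-297b, miR-466b, miR-466c, miR-466d, miR-466e, miR-466h, miR-669a and miR-669o. Several of these names share a 3p sequence, so the 8 are not independent.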

How the data were processed

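The deposited values used here are raw counts per mature miRNA. To make them, the authors trimmed poly-A stretches, selected reads by length, counted these with the miRDeep2 quantifier on miRBase and predicted precursors of GRCm38, and removed redundant lines. A second deposited column, the count times a constant per library, was not used, nor were the lists of predicted precursors. The members and lists were chosen with earlier results of these data known.

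Lines of identical sequence were counted once, with the larger counts kept where they differed, as for miR-466m-5p and miR-669m-5p. RPM were computed over the counts of each library. For AGO2 against mouse, edgeR 4.0.16 was run under R 4.3.3 (TMM, quasi-likelihood F test, Benjamini-Hochberg adjustment over all lines tested) on lines where a count exceeded 175 in at least 1 of the 4 libraries, the minimum of the study's methods. The standard error was the size of the log2 fold change divided by the square root of F. The procedure was tested on simulated counts. Named were the tested members, the 12 most abundant sequences, and the most abundant 5p and 3p sequence of each number, of which 1 member is not reported here by itself. Alternatives were DESeq2 1.42.0, its size factors, library totals, other filters, identical sequences once in the whole table, and each library left out; counting sequences of equal counts once was added after seeing the data. Sample numbers follow deposition order and pair no libraries. Positions and hairpins came from GENCODE M21. In RefSeq, 5 member lines had a mature entry of the same name, and all 5 had the same sequence. Other steps used Python 3.11.15 with matplotlib 3.10.9, SciPy 1.17.1, NumPy 2.4.6 and pandas 2.3.3.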

Additional observations from a re-analysis of the deposited data

How the results depend on the processing

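Of 69 recomputed log2 fold changes of tested members, 66 kept their direction and their side of the threshold. Both numbers count 1 result 2 times, since the 10 recomputed values of miR-467a-5p were the same as those of miR-467b-5p. miR-466h-5p passed under DESeq2 (-5.03) and without AGO2 sample 2, where AGO2 is 1 library with a count of 0, so the count of members called was 1 under DESeq2 and ran from 0 to 1 when each library was left out. It could not be fitted without mouse sample 1, where no count of it exceeds the minimum. miR-467d-5p turned from negative to 0.095 without AGO2 sample 1, in a range of -1.20 to 0.095 over libraries left out. The causes were not tested. Members detected in AGO2 numbered 38 with a count in either library, 24 with at least 10 counts, 10 with a count in both, and 11 to 37 with a library left out. With sequences of equal counts taken once, the summed level was 443 RPM in the mouse and 286 RPM in AGO2. The 5p share in the mouse was 98.7% with every deposited line summed and 98.9% without the most abundant member. No paired analysis was possible because the labels do not tie an AGO2 library to a mouse library. There were 2 libraries in a group, and most members lay under 20 RPM. The depth of the AGO2 samples and their difference from each other limit what can be said of the 40 members outside the main test.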
